A study of Mus musculus with 8 samples.

Results

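Transcripts of 9 enzymes of the tricarboxylic acid cycle were examined in haematopoietic stem cells (HSCs) of the mouse, which self-renew in the marrow and give rise to every blood lineage. The 9 genes, Cs, Idh2, Idh3a, Idh3b, Idh3g, Ogdh, Sucla2, Fh1 and Mdh2, were chosen by symbol and are 9 of the 55401 gene records in the deposited count table. The mice were of the C57BL/6 strain and 8 weeks old; about 3000 HSCs were sorted from marrow for each sample (another passage of the series text states fewer), and cDNA made from their RNA was sequenced. The Nynrin CKO group (4 libraries) came from Nynrinfl/flTie2-Cre mice, in which Cre under the Tie2 promoter, active in endothelium and blood cells, removes floxed Nynrin. The control group (4 libraries), labelled wild type, came from Nynrinfl/fl mice, so both groups carried the floxed alleles and the controls lacked Cre. Effects of Cre and of Nynrin loss cannot be told apart, nor can deletion in HSCs and in endothelium. The series title links Nynrin to HSC function and to the mitochondrial permeability transition pore, and the comparison here asks how transcripts of the central oxidative pathway of the same organelle stood in the deleted cells. Whether the 4 libraries of a group are from different mice is not in the labels, and the p-values refer to the spread among libraries, part of which may be technical.

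The tricarboxylic acid cycle runs in the mitochondrial matrix and oxidises acetyl groups to carbon dioxide while it reduces NAD and FAD for the respiratory chain. Citrate synthase (Cs) starts the cycle, isocitrate dehydrogenases (Idh2, Idh3a, Idh3b and Idh3g) and oxoglutarate dehydrogenase (Ogdh) carry out the decarboxylations, the ADP-forming succinyl-CoA ligase (Sucla2) yields succinate, and fumarase (Fh1) and malate dehydrogenase (Mdh2) regenerate oxaloacetate. HSCs at rest are known for low mitochondrial activity and reliance on glycolysis, and for a rise of oxidative metabolism when they differentiate.

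RefSeq promoter windows, from 250 bases before to 50 after an annotated start on GRCm38.p6 (the build also called mm10), were found for 8 of the 9 genes. Of these, 3 are shown, because Mdh2 was the gene called higher, Sucla2 had the next smallest p and Cs had a fold change close to none. Capitals mark matches on either strand to GGGCGG (SP/KLF), CCAAT (NF-Y), TGACGTCA (CRE) and the NRF1 letters (GCGCA and GCGC with any 1 base between), none of which overlap here; CCGGAAG (ETS/GABPA), CACGTG (E-box) and TCAAGGTCA (ERR) were searched as well and have no match in these 3 windows. The windows are chr5:135778399-135778698 (plus strand) for Mdh2, chr14:73552536-73552835 (plus strand) for Sucla2 and chr10:128337477-128337776 (plus strand) for Cs. The RefSeq starts of Mdh2 and Sucla2 lie inside the gene coordinates given with their values.
Mdh2: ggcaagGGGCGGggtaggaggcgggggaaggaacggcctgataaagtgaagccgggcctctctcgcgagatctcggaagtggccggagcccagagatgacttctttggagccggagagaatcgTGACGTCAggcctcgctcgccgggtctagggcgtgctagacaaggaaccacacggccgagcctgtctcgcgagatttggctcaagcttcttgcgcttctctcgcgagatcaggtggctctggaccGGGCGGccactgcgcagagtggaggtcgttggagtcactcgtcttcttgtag
Sucla2: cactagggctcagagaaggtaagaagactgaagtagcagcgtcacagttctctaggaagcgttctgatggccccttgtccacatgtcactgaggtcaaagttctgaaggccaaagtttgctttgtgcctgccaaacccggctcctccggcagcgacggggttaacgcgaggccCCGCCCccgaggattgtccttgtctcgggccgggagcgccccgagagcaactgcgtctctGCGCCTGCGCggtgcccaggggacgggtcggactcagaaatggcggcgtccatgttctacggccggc
Cs: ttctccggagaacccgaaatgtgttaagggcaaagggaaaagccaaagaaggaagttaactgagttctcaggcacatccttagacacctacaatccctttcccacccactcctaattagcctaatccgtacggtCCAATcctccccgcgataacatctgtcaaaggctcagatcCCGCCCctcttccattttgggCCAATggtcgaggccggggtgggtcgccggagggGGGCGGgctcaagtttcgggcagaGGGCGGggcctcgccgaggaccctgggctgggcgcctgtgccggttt

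Windows differed in the letters they held. The Mdh2 window held a CRE match and 2 SP/KLF matches, the Sucla2 window an NRF1 match at its start site region and 1 SP/KLF match, and the Cs window 3 SP/KLF and 2 CCAAT matches. Of 32851 promoter windows of the same length, 1.79% held the CRE letters, 4.6% the NRF1 letters, 35.7% the SP/KLF letters and 37.4% the CCAAT letters. The SP/KLF letters were in 6 and the CCAAT letters in 5 of the 8 members' leading windows. In the same windows the CRE letters were in 2 (Mdh2 and Ogdh), the NRF1 letters in 1 (Sucla2) and the ETS letters, held by 8.86% of all windows, in 2 (Idh3b and Idh3g). No window of these 8 held the ERR letters, which 0.423% of all windows have, and no leading window held the E-box letters, which 7.15% have. GC content was 62.7% for Mdh2, 62.0% for Sucla2 and 58.7% for Cs, against a median of 52.7% over all windows. A match describes letters and no binding was measured.

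Deposited counts summed to between 36942835 and 56437299 per library, and each of the 9 genes had at least 2800 counts in every library. The deletion was visible in the counts: Nynrin was at 30.1 to 47.5 CPM (counts relative to library size, scaled by TMM factors) in controls and at 8.22 to 12.7 CPM in Nynrin CKO, with a log2 fold change of -1.85 (SE 0.22, edgeR adjusted p = 0.0345). All 12 HSC marker genes listed for the check, among them Kit, Procr and Mecom, had counts in every library. Of these, edgeR called 0 and DESeq2 called 3 lower, against 981 of 27573 genes called lower by DESeq2. At an unadjusted p under 0.05 in edgeR, 5 were lower. Over all genes 5222 of 27573 had such a p, 3629 of them in the higher direction. Mecom was at 91.4 to 107 CPM in controls and 31.1 to 69.7 CPM in Nynrin CKO, while Kit and Procr overlapped between the groups. Libraries also differed within each group. Control 4 and Nynrin CKO 3 and 4 had 177 to 216 CPM on genes for smell and vomeronasal receptors, and the other 5 libraries had 873 to 1449 CPM. The former are called receptor-poor and the latter receptor-rich libraries. Nynrin CKO 3 and 4 were also the libraries with the highest summed level of 10 neutrophil lineage genes, 4090 and 4128 CPM, against 470 and 519 CPM in Nynrin CKO 1 and 2 and 204 to 355 CPM in controls. Mitochondrial genes took 9.90% and 9.86% of the counts in these 2 libraries and 5.98% to 7.44% in the other 6, and their TMM factors were both 0.805 against 1.02 to 1.16. Genes with counts numbered 28914 to 31344 in receptor-poor and 40240 to 44562 in receptor-rich libraries. Controls 3 and 4 had Xist above 100 CPM and the other 6 libraries did not. Nynrin CKO 1 and 2 resembled each other (biological coefficient of variation 0.246), as did 3 and 4 (0.246), while the coefficient was 0.804 to 0.815 between these pairs.

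Of the 9 genes, Mdh2 rose in Nynrin CKO, 1.72-fold, and was the 1 member that passed the test; no member was called lower. Of all 27573 tested genes, 2.22% were called higher and 0.588% lower (edgeR quasi-likelihood test, adjusted p threshold 0.05). Positive log2 fold changes were found for 8 of 9 members, with a median of 0.39, where 44.5% of all tested genes were positive and the median was -0.09. With total counts for scaling the medians were 0.11 for members and -0.34 for all genes, and Cs, Idh3a and Ogdh were negative. Scaling also moved the split of calls over all genes, from 611 higher and 162 lower with TMM to 225 and 251 with upper-quartile factors, 13 and 22 with RLE factors and 59 and 318 with total counts. In Mdh2, Sucla2, Idh3g and Idh3b all 4 Nynrin CKO libraries lay above all 4 controls, as 9.52% of all tested genes did; in no member did they all lie below, as in 4.83% of all tested genes. Without any single library other than control 4, edgeR called only 1 to 7 genes in all. Sucla2 (adjusted p = 0.0546), Idh3b (0.0831), Idh3g (0.112) and Fh1 (0.217) had unadjusted p-values under 0.05, as did Mdh2 and 13.2% of all tested genes in the higher direction, and did not pass after adjustment over all genes. More RNA per cell and more cells of a type that uses a gene cannot be told apart in such bulk libraries.

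**Figure D1:**
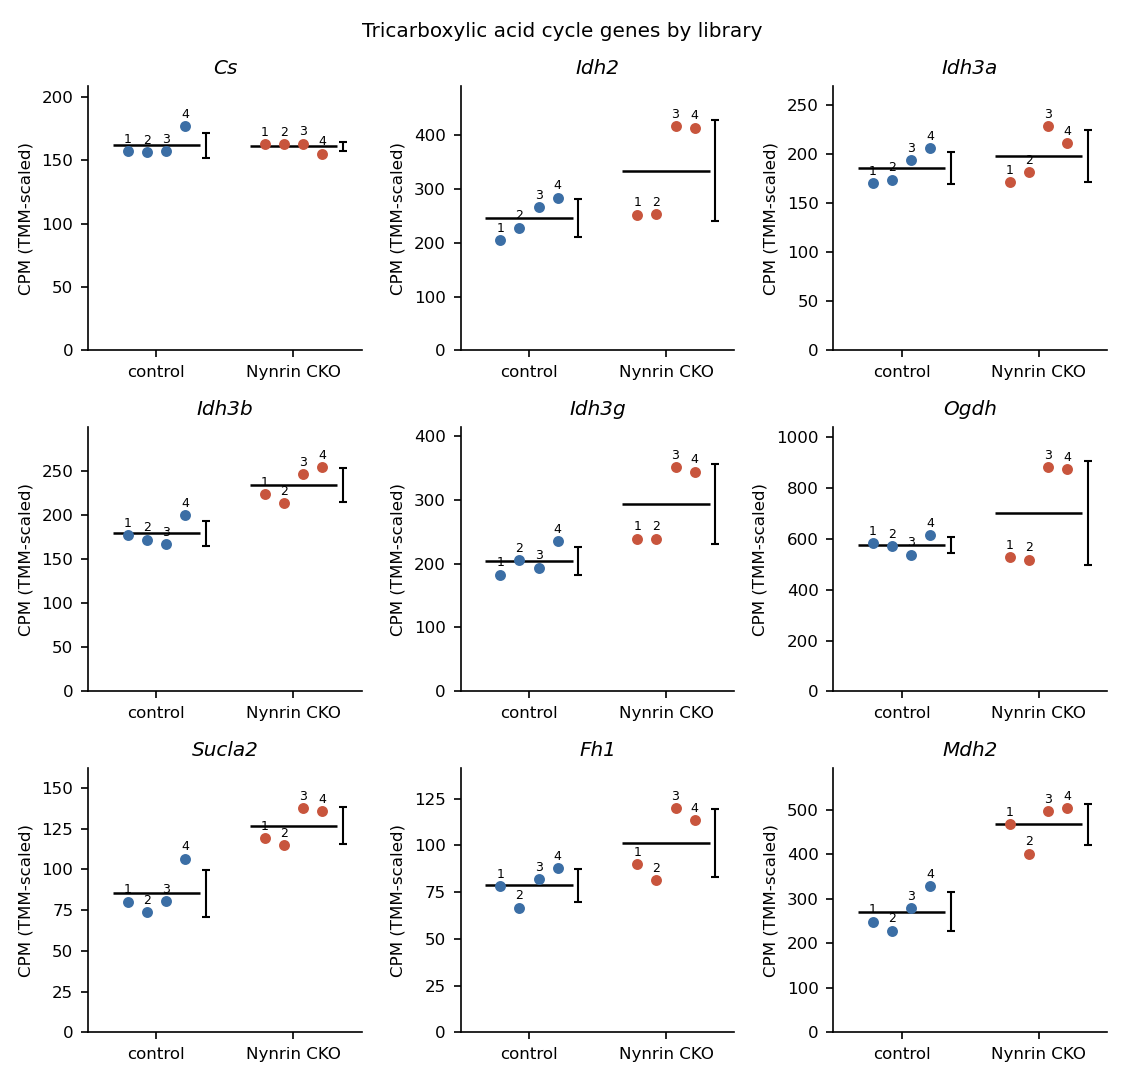
Level of each of the 9 genes in each library, in TMM-scaled CPM on axes that start at 0; numbered points are libraries, horizontal lines are group means and vertical bars show ± SD (n = 4 each). Nynrin CKO lies wholly above control for Idh3b, Idh3g, Sucla2 and Mdh2. In every gene except Cs, libraries 3 and 4 of Nynrin CKO stand above libraries 1 and 2, with the widest gaps for Idh2, Ogdh and Idh3g.

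The entry enzyme showed no difference beyond the spread. Cs (ENSMUSG00000005683, chromosome 10 from 128337734 to 128362479 of mm10, plus strand) measured 157, 156, 157 and 177 CPM in controls 1 to 4 and 162, 163, 163 and 155 CPM in Nynrin CKO 1 to 4. The groups overlapped, with the highest and the lowest library both receptor-poor. The log2 fold change was -0.01, with a 95% interval from -0.21 to 0.20 (edgeR adjusted p = 0.977). A record named for a similar gene, Csl, held 0.525% as many counts as Cs.

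Mitochondrial NADP-dependent isocitrate dehydrogenase, Idh2, forms oxoglutarate and NADPH. Idh2 (ENSMUSG00000030541, chromosome 7 from 80094846 to 80115392, minus strand) measured 205, 228, 267 and 284 CPM in controls 1 to 4 and 252, 253, 416 and 413 CPM in Nynrin CKO 1 to 4. Nynrin CKO 1 and 2 fell inside the control range and 3 and 4 above it. The log2 fold change of 0.44 (SE 0.21) did not pass (edgeR adjusted p = 0.290). The libraries that stood high were those with the highest mitochondrial share and neutrophil sum, whose part was not tested. It was 0.11 among receptor-rich libraries and 0.55 among receptor-poor ones, in which control 4 is the only control.

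The NAD-dependent isocitrate dehydrogenase is built from a catalytic alpha subunit (Idh3a) and the beta and gamma subunits (Idh3b and Idh3g), of which gamma is regulatory. Idh3a (ENSMUSG00000032279, chromosome 9 from 54586334 to 54604661, plus strand) measured 170, 174, 194 and 206 CPM in controls against 171, 182, 228 and 211 CPM in Nynrin CKO. These values overlapped, at a log2 fold change of 0.09 with a 95% interval from -0.19 to 0.37 (edgeR adjusted p = 0.780). Idh3b (ENSMUSG00000027406, chromosome 2 from 130279309 to 130284547, minus strand) measured 177, 172, 167 and 200 CPM in controls against 223, 213, 246 and 254 CPM in Nynrin CKO. The groups lay apart, with a log2 fold change of 0.39 (SE 0.11, edgeR adjusted p = 0.0831), and within-set values of 0.34 (receptor-rich) and 0.32 (receptor-poor). Its record shares 5 bases with that of Nop56, a nucleolar protein gene on the other strand that meets it end to end. Idh3g (ENSMUSG00000002010, chromosome X from 73778963 to 73786897, minus strand) measured 182, 205, 193 and 235 CPM in controls against 239, 239, 350 and 344 CPM in Nynrin CKO. The groups lay just apart, with control 4 close below Nynrin CKO 1 and 2, and again Nynrin CKO 3 and 4 were the highest. The log2 fold change was 0.52 (SE 0.16, edgeR adjusted p = 0.112), 0.30 among receptor-rich libraries and 0.57 among receptor-poor ones. Idh3g is X-linked, and in controls the libraries with Xist above 100 CPM had 193 and 235 CPM and those without had 182 and 205 CPM.

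Ogdh encodes the decarboxylating subunit of the oxoglutarate dehydrogenase complex. The gene (ENSMUSG00000020456, chromosome 11 from 6291633 to 6356642, plus strand) measured 584, 570, 538 and 614 CPM in controls 1 to 4 and 528, 517, 881 and 873 CPM in Nynrin CKO 1 to 4. Nynrin CKO 1 and 2 were below every control and 3 and 4 above every control. The pooled log2 fold change of 0.28 (SE 0.20, edgeR adjusted p = 0.536) averaged unlike estimates, -0.11 among receptor-rich libraries and 0.51 among receptor-poor ones. The first was small, with 528 CPM in Nynrin CKO 1 against 538 CPM in control 3, and a decrease was not established. The second rests on control 4 as the only control. The summed neutrophil lineage genes and the mitochondrial share differed in the same libraries, as given above, and their part in the Ogdh level was not tested. With total counts for scaling the pooled value was -0.0299. The similar record Ogdhl held 0.218% as many counts as Ogdh.

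Sucla2, the ADP-specific beta subunit of succinyl-CoA ligase, had the second smallest p of the 9 genes. The gene (ENSMUSG00000022110, chromosome 14 from 73525319 to 73595783, plus strand) measured 80.2, 73.7, 80.5 and 107 CPM in controls against 119, 115, 137 and 136 CPM in Nynrin CKO. All Nynrin CKO libraries lay above all controls, and control 4 was the control nearest to them. The log2 fold change was 0.57 (SE 0.13, edgeR adjusted p = 0.0546), 0.58 among receptor-rich libraries and 0.36 among receptor-poor ones. Without control 4 it was 0.71 and passed (adjusted p = 0.0244); without any other single library the adjusted p was 0.0689 to 0.346, and with similar Nynrin CKO libraries summed it was 0.523.

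Fumarase, Fh1, hydrates fumarate to malate. The gene (ENSMUSG00000026526, chromosome 1 from 175600374 to 175625635, minus strand) measured 78.1, 66.6, 82.0 and 87.7 CPM in controls against 90.1, 81.6, 120 and 113 CPM in Nynrin CKO. The groups overlapped at Nynrin CKO 2. The log2 fold change of 0.36 (SE 0.15) did not pass (edgeR adjusted p = 0.217). Among receptor-rich libraries it was 0.18 and among receptor-poor ones 0.41. The record overlaps that of Kmo, which held 4.46% as many counts.

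Mdh2, the matrix malate dehydrogenase that closes the cycle and serves the malate-aspartate shuttle, rose in Nynrin CKO. The gene (ENSMUSG00000019179, chromosome 5 from 135778480 to 135790391, plus strand) measured 248, 228, 278 and 328 CPM in controls against 468, 401, 496 and 503 CPM in Nynrin CKO. Every Nynrin CKO library was above every control, in receptor-rich and in receptor-poor libraries. Means were 271 ± 43.4 and 467 ± 46.6 CPM (SD, n = 4 each), with a log2 fold change of 0.79 (SE 0.14, edgeR adjusted p = 0.0396). It was 0.79 among receptor-rich libraries and 0.61 among receptor-poor ones, and 5.52% of all tested genes had a larger value. The call depended on single libraries: the adjusted p was 0.108, 0.133 and 0.220 without control 1, 2 or 3, 0.0682, 0.0545, 0.101 and 0.101 without Nynrin CKO 1, 2, 3 or 4, and 0.0240 without control 4. It was 0.447 when the similar Nynrin CKO libraries were summed in pairs and 0.299 with the trend on length and GC content taken out.

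**Figure D2:**
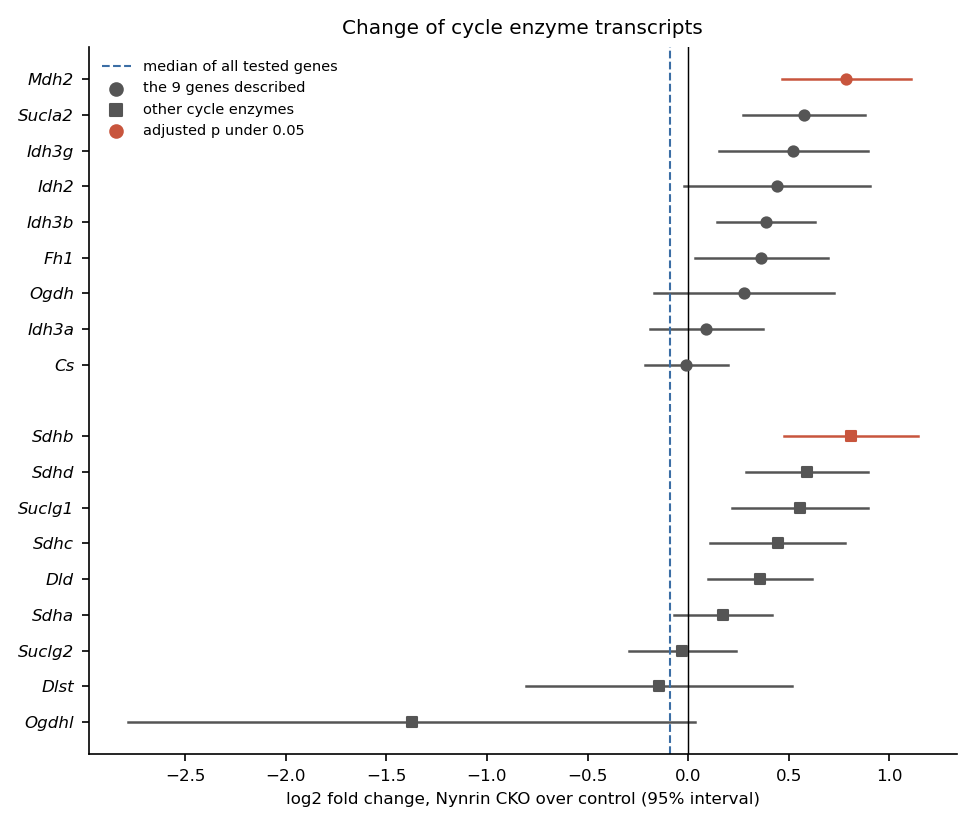
Log2 fold change of Nynrin CKO over control with its 95% interval for the 9 genes (circles) and 9 other records of cycle enzymes (squares); red marks an adjusted p under 0.05 and the dashed line the median of all tested genes, -0.09. Mdh2 and Sdhb are the genes marked red, and the interval of Cs, Idh3a, Ogdh and Idh2 among the circles includes 0.

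Succinate dehydrogenase, the cycle enzyme that is also a respiratory complex, gave the call among the other enzymes of the cycle. Of 10 records, 1 was called higher and none lower, with a median log2 fold change of 0.31. The called gene was Sdhb, the iron-sulphur subunit of succinate dehydrogenase, which went from 141 ± 28.0 to 246 ± 17.9 CPM (log2 fold change 0.81, edgeR adjusted p = 0.0398). The other 3 succinate dehydrogenase subunits had values of 0.59 (Sdhd), 0.44 (Sdhc) and 0.17 (Sdha), none past the threshold. For the shared alpha subunit of succinyl-CoA ligase, Suclg1, the log2 fold change was 0.55 (adjusted p = 0.0780), and for the GDP-specific beta subunit, Suclg2, it was -0.03 (95% interval from -0.29 to 0.24). Of Ogdh's partners in the complex, Dld was at 0.36 (adjusted p = 0.121) and Dlst at -0.14 (adjusted p = 0.860). The Sdhb call and the 6 calls in the lists that follow were lost in edgeR when any single library other than control 4 was left out.

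Among the feeders of the cycle, both subunits of the mitochondrial pyruvate carrier rose. Mpc1 went from 16.0 ± 3.58 to 29.8 ± 4.10 CPM and Mpc2 from 30.8 ± 1.69 to 42.7 ± 3.10 CPM (edgeR adjusted p = 0.0415 and 0.0458). They were the 2 of 13 genes of pyruvate entry that passed, with a list median of 0.11 (log2). Of 8 genes of glutamine use and anaplerosis, Me2, the mitochondrial NAD-dependent malic enzyme, rose (0.59, adjusted p = 0.0457), with a list median of 0.06. Of 7 mitochondrial metabolite carriers, Slc25a20, the carnitine carrier, rose (0.52, adjusted p = 0.0394), with a list median of 0.13.

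Cytosolic counterparts and assembly factors had no gene past the threshold. Of the 6 cytosolic enzymes, edgeR called 0, DESeq2 called 1 and 2 had an unadjusted p under 0.05 in edgeR. Those with the smallest p were Idh1, the cytosolic NADP-dependent isocitrate dehydrogenase (log2 fold change 0.56, adjusted p = 0.0502), and Mdh1, the cytosolic malate dehydrogenase (0.63, adjusted p = 0.138). The Mdh1 record shares bases with Wdpcp, which held 10.02% as many counts. Of 4 succinate dehydrogenase assembly factors, edgeR and DESeq2 called 0 and 1 had an unadjusted p under 0.05 in edgeR; Sdhaf4 was at 0.49 (adjusted p = 0.166) and Sdhaf2 at 0.20 (adjusted p = 0.393).

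Enzymes that use oxoglutarate, the product of Idh2 and Idh3, or that clear its hydroxylated form, had no gene called higher. Of 15 such genes, edgeR called none higher (1 at an unadjusted p under 0.05, none by DESeq2) and 2 were called lower, with a median log2 fold change of -0.07. Kdm6a, an X-linked histone H3 lysine demethylase, fell from 37.6 ± 7.31 to 20.2 ± 3.09 CPM (log2 fold change -0.90, edgeR adjusted p = 0.0408). Kdm5c, also an X-linked histone demethylase, fell from 60.8 ± 6.40 to 43.4 ± 2.98 CPM (-0.49, adjusted p = 0.0492). Both genes are known to escape X inactivation in mouse, and the libraries with Xist above 100 CPM were 2 of the 4 controls and none of Nynrin CKO. For Kdm6a those controls had 43.9 and 44.1 CPM, the other controls 31.7 and 31.0 CPM, and Nynrin CKO 17.2 to 23.96 CPM. For Kdm5c they had 63.3 and 68.2 CPM, the other controls 58.7 and 53.2 CPM, and Nynrin CKO 40.4 to 46.4 CPM. In both genes Nynrin CKO thus also lay below the controls with low Xist. Neither gene was called by edgeR with a term for the Xist class, where 10 genes were called in all. Neither was called over the 6 libraries with low Xist, where 0 genes were called. The part of the Xist class was not tested separately from this general loss of calls.

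Ratios between paired transcripts were taken within each library, where scaling factors cancel. A trend with transcript length, given below, does not cancel, and its part in the ratios was not tested. Longest transcripts were 3003 bases for Cs and 1606 for Mdh2, and 2229 for Sucla2 and 3367 for Suclg2. With a length and GC trend removed, the log2 fold changes of Cs and Mdh2 were -0.03 and 0.50, against -0.01 and 0.79 without. The count ratio of Sucla2 to Suclg2, which pairs the ADP-specific with the GDP-specific beta subunit, was 0.543, 0.456, 0.545 and 0.613 in controls and 0.830, 0.854, 0.840 and 0.769 in Nynrin CKO. It was 1.53-fold higher in Nynrin CKO, and the groups lay apart. The ratio of Cs to Mdh2 was 0.633, 0.684, 0.565 and 0.539 in controls and 0.347, 0.406, 0.329 and 0.309 in Nynrin CKO, a log2 difference of -0.80. This difference was close to equal within the library sets, -0.74 in receptor-rich and -0.76 in receptor-poor libraries. For Sucla2 to Suclg2 the log2 difference was 0.72 in receptor-rich and 0.39 in receptor-poor libraries. The ratio of Idh3a to Idh3g was 0.850 to 1.001 in controls and 0.614 to 0.760 in Nynrin CKO (log2 difference -0.42), and that of Idh2 to Idh3a 1.204 to 1.38 and 1.39 to 1.96 (0.32). The former was -0.33 in receptor-rich and -0.47 in receptor-poor libraries, and the latter 0.14 and 0.46. In these 4 of 8 ratios the groups did not overlap. Each had a two-sided exact permutation p of 0.0286, the smallest that 4 against 4 libraries can give. The adjusted p was 0.0571 over the 8 ratios, so none passed at 0.05. Of single tested genes, 9.52% lay wholly higher and 4.83% wholly lower in Nynrin CKO. The share of other gene pairs whose ratios lie apart was not taken, so the count of 4 has no background to be read against. The other 4 overlapped, with log2 differences of -0.12 for Idh3b to Idh3g, -0.16 for Idh2 to Idh1, 0.20 for Mdh2 to Mdh1 and 0.34 for Ogdh to Dlst (exact permutation p from 0.343 to 0.543). All 4 of these differed in sign between receptor-rich and receptor-poor libraries: 0.04 and -0.24 for Idh3b to Idh3g, -0.58 and 0.33 for Idh2 to Idh1, 0.51 and -0.22 for Mdh2 to Mdh1, and -0.23 and 1.38 for Ogdh to Dlst.

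**Figure D3:**
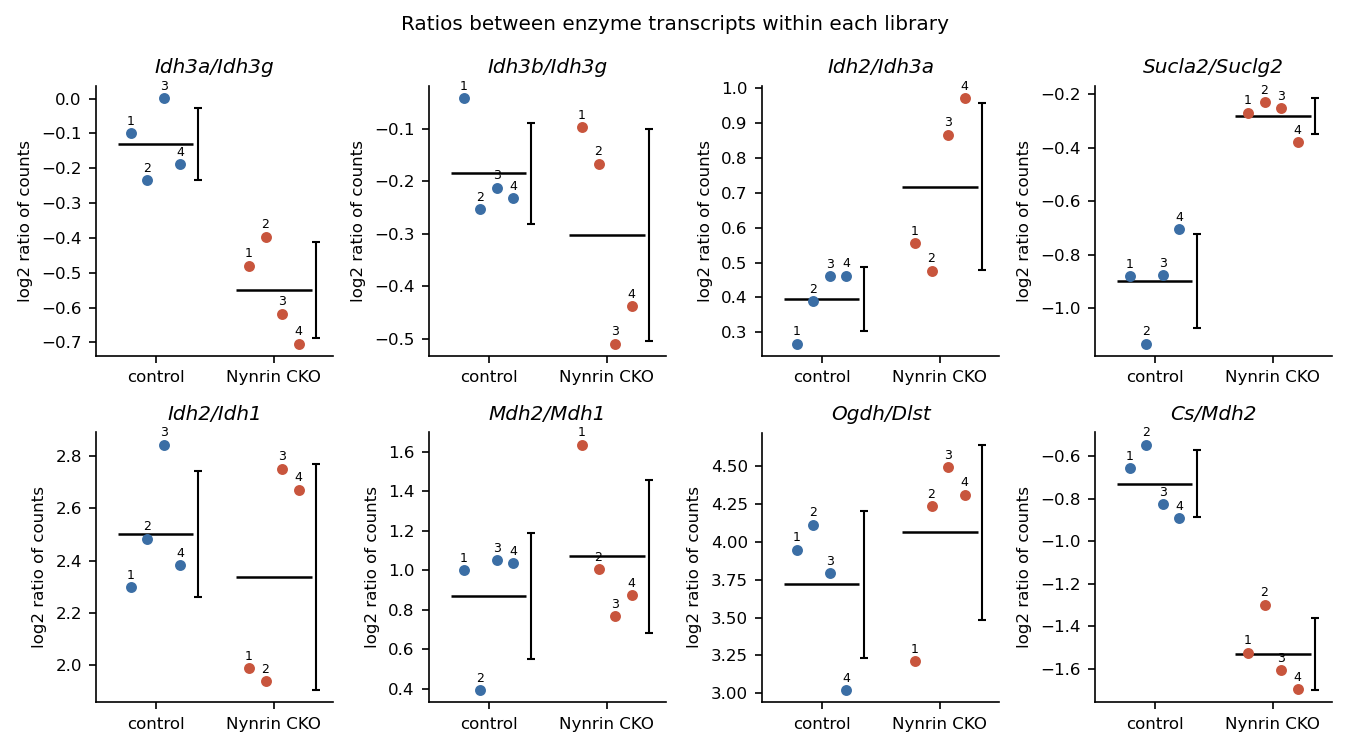
Log2 ratio of the counts of paired genes within each library; numbered points are libraries, horizontal lines are group means and vertical bars ± SD (n = 4 each). The groups lie apart for Idh3a/Idh3g, Idh2/Idh3a, Sucla2/Suclg2 and Cs/Mdh2, and overlap for the other 4 ratios.

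Levels between genes were compared per length, as CPM per kilobase of the gene's merged exons. In controls Ogdh was at 106 ± 5.80, Idh2 at 94.99 ± 13.8, Mdh2 at 76.0 ± 12.2 and Idh3g at 75.5 ± 8.31 CPM per kilobase (SD, n = 4), and neighbours in this order overlapped. Below these came Idh3b at 52.3 ± 4.22, Idh3a at 36.7 ± 3.30 and Cs at 28.0 ± 1.72, each apart from the next, and Fh1 at 23.2 ± 2.62 and Sucla2 at 21.4 ± 3.66, which overlapped. In Nynrin CKO Mdh2 came at the top with 131 ± 13.1 CPM per kilobase, beside Idh2 at 129 ± 36.3 and Ogdh at 128 ± 37.5, whose ranges overlapped, and Cs was at 27.8 ± 0.65, within the range of Fh1. The order depends on the length used: per kilobase of the longest transcript, Mdh2 led in controls as well, at 169 against 140 for Ogdh and 137 for Idh2, and in Nynrin CKO the lowest was Fh1 at 38.4, below Cs at 53.6.

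The 9 genes together took 0.205% to 0.233% of all counts in controls and 0.221% to 0.244% in Nynrin CKO, so the ranges overlapped. The share of Mdh2 within that sum was 12.2% to 14.7% in controls and 16.3% to 20.8% in Nynrin CKO, with no overlap. The share of Ogdh was 27.4% to 31.0% in controls, 23.4% and 23.9% in Nynrin CKO 1 and 2, and 29.0% and 29.1% in Nynrin CKO 3 and 4. Within the enzyme set the makeup of transcripts thus differed between the pairs of Nynrin CKO libraries.

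The 5 genes whose levels followed Mdh2 most closely across the 8 libraries were Pno1 (Pearson r = 0.997), Etfa (0.996), Smarcb1 (0.996), Psmc2 (0.996) and Mrpl18 (0.995), among 9267 genes with at least 10 CPM on average. Pno1 acts in ribosome assembly, Etfa passes electrons from fatty acid oxidation, Smarcb1 is a chromatin remodelling subunit, Psmc2 a proteasome ATPase and Mrpl18 a mitochondrial ribosome protein. The 8 points share the difference between the groups and the library sets, and the values are a description chosen from many genes. With the mean of each group taken out, r was 0.992, 0.976, 0.976, 0.972 and 0.970 in the same order. The difference between the library sets was not taken out.

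**Figure D4:**
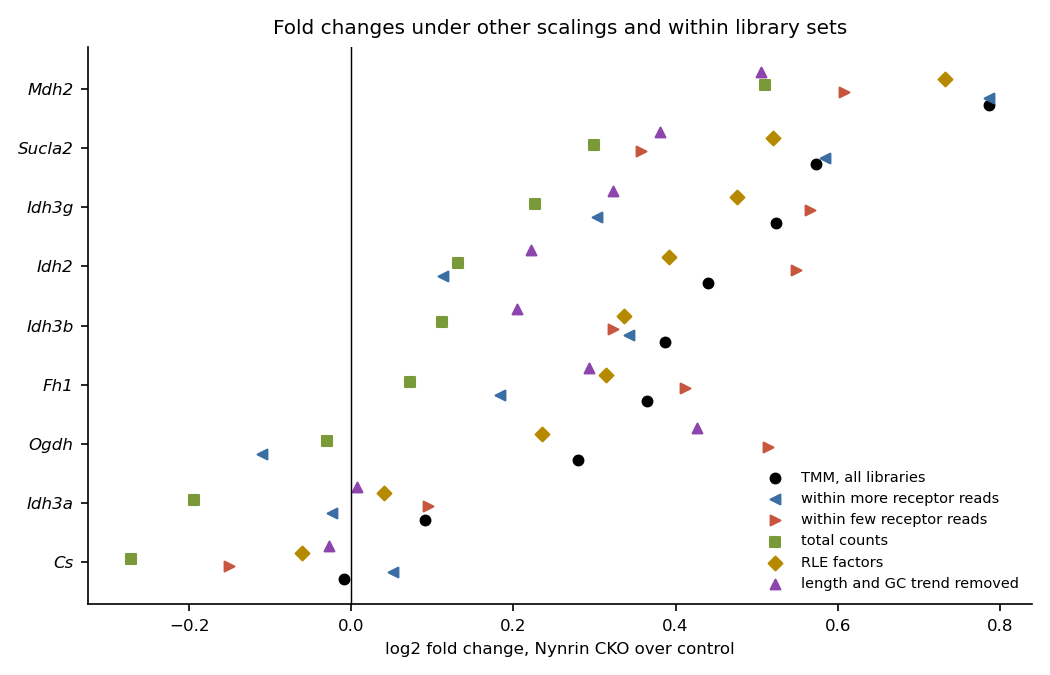
Log2 fold change of each gene with TMM factors over all libraries, with total counts or RLE factors, with a length and GC trend taken out, and among receptor-rich or receptor-poor libraries alone (more or few receptor reads in the key). Mdh2 lies between 0.50 and 0.79 in these settings, and Ogdh runs from -0.11 to 0.51.

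Other measures moved with these results. Over expressed genes divided into 5 equal groups by longest transcript, the median log2 fold change was 0.38 for the shortest transcripts and -0.17 for the longest, and 7.39% and 0.537% were called higher. Mdh2 (longest transcript 1606 bases) is in the shortest group. Idh2, Idh3a, Idh3b, Idh3g, Sucla2 and Fh1 (1790 to 2636 bases) are in the next, with a median of 0.23. Cs (3003 bases) is in the middle group with a median of 0.08, and Ogdh (4127 bases) in the fourth with a median of -0.08. After removal of a trend on length and GC content per library the members' median was 0.29, with Mdh2 at 0.50, Ogdh at 0.43, Sucla2 at 0.38, Idh3g at 0.32 and Idh3b at 0.20, and edgeR called 0 members and 4 genes in all, with 1 member and 3484 genes at an unadjusted p under 0.05.

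**Figure D5:**
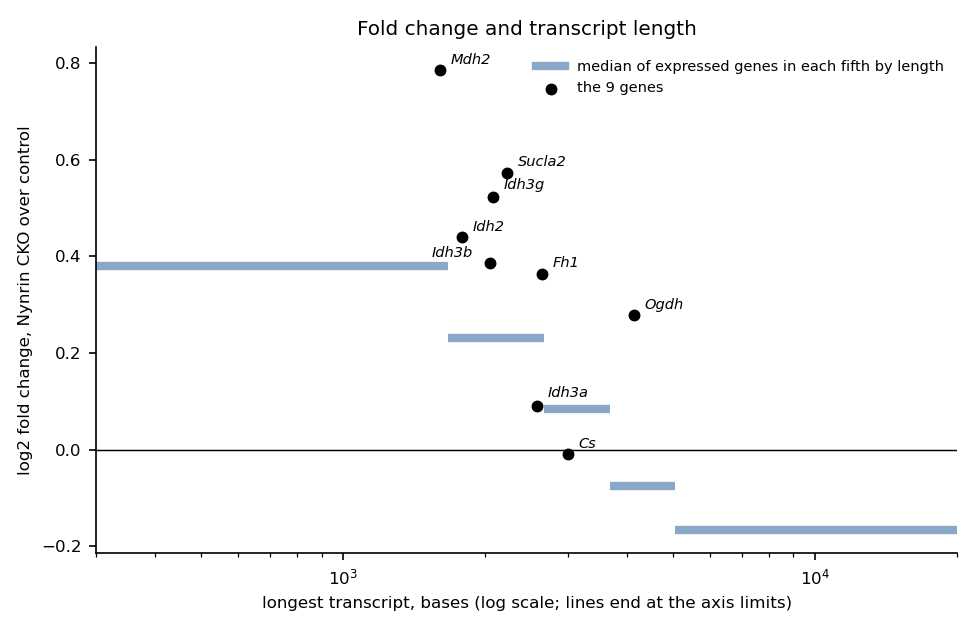
Log2 fold change of the 9 genes (points) against the length of their longest transcript on a log axis, with the median of all expressed genes in each of 5 equal groups by length (bars). Bars step down from 0.38 to -0.17, and every one of the 9 genes except Cs and Idh3a lies above the bar of its own length group.

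Summed markers of several other lineages stood higher in Nynrin CKO than in any control, and for all of these but the erythroid genes libraries 3 and 4 were above 1 and 2. Summed levels in controls, in Nynrin CKO 1 and 2 and in Nynrin CKO 3 and 4 were 318 to 386, 454 to 463 and 771 to 777 CPM for 10 monocyte and macrophage genes. They were 91.6 to 137, 161 to 255 and 1147 to 1192 CPM for 9 B cell genes and 1123 to 1436, 2301 to 2467 and 2115 to 2165 CPM for 9 erythroid genes. For 8 mast cell and basophil genes they were 25.0 to 64.3, 76.9 to 77.9 and 155 to 158 CPM, and for 8 T and NK cell genes 56.4 to 85.7, 143 to 154 and 285 to 293 CPM. Single genes carried several of these sums. Nkg7 made up 133 to 267 CPM of the T and NK cell sum in Nynrin CKO, while Cd3e, Cd3d, Cd3g and Cd8a had at most 1.69 CPM in any library. Ighm made up 1012 and 1026 CPM of the B cell sum in Nynrin CKO 3 and 4, while Ms4a1, Pax5 and Vpreb1 overlapped between the groups. Car2 made up 1909 to 2181 CPM of the erythroid sum in Nynrin CKO. Lyz2 held 367 to 547 CPM of the monocyte and macrophage sum in the same libraries. Gata1 held 43.5 and 47.1 CPM of the mast cell and basophil sum in libraries 1 and 2 of Nynrin CKO. Of the neutrophil sum in libraries 3 and 4, Mpo held 2829 and 2824 CPM. Endothelial genes (7) were at 111 to 139, 123 and 243 to 247 CPM and megakaryocyte genes (6) at 120 to 359, 279 to 306 and 122 CPM. Among neutrophil genes, Elane was at 0.69 to 12.7 CPM across controls, at 34.4 and 35.5 CPM in Nynrin CKO 1 and 2 and at 402 and 421 CPM in 3 and 4. No marker in these lists was at 0 in all libraries. Called higher by edgeR were 1 of 10 neutrophil, 2 of 10 monocyte and macrophage, 2 of 8 mast cell and basophil, 3 of 9 erythroid and 1 of 8 T and NK cell genes, against 2.22% of all tested genes. In the same order, DESeq2 called 6, 5, 4, 3 and 1 higher, against 1714 of 27573 genes. At an unadjusted p under 0.05 in edgeR, 7, 8, 5, 4 and 1 were higher, against 13.2% of all tested genes. Of the B cell, megakaryocyte and endothelial genes edgeR called 0; 4, 1 and 1 had an unadjusted p under 0.05, and DESeq2 called 4, 1 and 0. Summed HSC markers overlapped between the groups, at 3309 to 4191 CPM for controls against 3710 to 4196 CPM. The part of these cells in the levels of the 9 genes was not tested. Nynrin CKO 1 and 2, the receptor-rich Nynrin CKO libraries, had neutrophil sums of 470 and 519 CPM, also above every control, and the highest erythroid sums. Among receptor-rich libraries the log2 fold changes of Mdh2, Sucla2 and Idh3b were 0.79, 0.58 and 0.34, against 0.79, 0.57 and 0.39 over all 8 libraries. The other members were lower there than over all libraries or near 0: Idh3g was at 0.30 against 0.52, Fh1 at 0.18 against 0.36, Idh2 at 0.11 against 0.44, Ogdh at -0.11 against 0.28, Idh3a at -0.02 against 0.09 and Cs at 0.05 against -0.01.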

How the data were processed

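The values used are raw counts, which the authors deposited as whole numbers for each gene and library. The submitters' processing notes name the build mm10. Aligner, counter and strandedness were not given in the sources used here, so reads of overlapping records can fall on either. Per the labels' protocols, 5 ng of cDNA entered each library.

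The test was that of edgeR 4.0.16 (R 4.3.3): filterByExpr kept 27573 genes, TMM factors scaled the libraries, and a robust quasi-likelihood F-test compared 4 Nynrin CKO with 4 control libraries, with Benjamini-Hochberg adjustment over all tested genes and a threshold of 0.05. CPM uses the same factors. Intervals are 95% intervals of the fit. Ratios were compared by exact permutation over 70 assignments. Lengths and GC content came from GENCODE vM21, with a length for 55141 of 55401 records, and promoters from RefSeq. On simulated counts for the 27573 genes of this comparison 76 of 100 genes with a 4-fold change were recovered; for a 2-fold change it was 41 of 100. Unchanged genes (27373) gave 8 calls. In this simulation libraries were drawn independently, without library sets or similar pairs, and changed genes had at least 1 CPM on average. The real libraries differ in these ways, so the rates may not hold for them.

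Receptor-rich and receptor-poor libraries divide at 300 CPM of receptor genes (1 mean per group and set, control 4 alone in its cell being assumed to vary like the others) and the Xist classes at 100 CPM. All 9 genes are named; of each other list, the genes that passed or, with none, the 2 with the smallest p; and the 5 genes most like Mdh2. Members, lists, library sets and tests were chosen with earlier results of these data known. Some listed genes and overlapping records are not reported here. Alternatives used limma 3.58.1 and DESeq2 1.42.0 among others. Chosen after the counts of this comparison were seen were the newer form of the quasi-likelihood fit and a fit of the 6 libraries with low Xist.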

Additional observations from a re-analysis of the deposited data

Results flagged for a closer look

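In 3 of the 34 groups of 4 values checked for a library far from the other 3, a library stood apart; chance gives about 1 in 20 such groups. Cs was at 177 CPM in control 4 against 156 to 157 CPM in the other controls. Cs was at 155 CPM in Nynrin CKO 4 against 162 to 163 CPM in the other Nynrin CKO libraries. The count ratio of Mdh2 to Mdh1 was 1.31 in control 2 against 1.998 to 2.07 in the other controls.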

How the results depend on the processing

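Mdh2 had a positive log2 fold change in all 26 alternatives, from 0.50 to 1.01, and passed in 10 of them; Sucla2 (0.30 to 0.76), Idh3g (0.23 to 0.64), Idh3b (0.11 to 0.46), Idh2 (0.11 to 0.67) and Fh1 (0.07 to 0.52) were positive in all 26 as well. Members called, all genes called and other listed genes called (1, 773 and 7 with TMM) were 0, 35 and 0 with RLE factors, 0, 377 and 3 with total counts, 0, 49 and 0 without a filter, 0, 105 and 0 with mitochondrial, ribosomal and haemoglobin genes removed, 0, 4 and 0 with the length and GC trend removed, 0, 10 and 0 with a term for the Xist class, and 0, 0 and 0 both after summing similar Nynrin CKO libraries and over the 6 libraries low in Xist. In these edgeR fits 1 to 6 members had an unadjusted p under 0.05, and in the last pair of fits 3022 and 4930 genes did. They were 3, 2695 and 12 with DESeq2, 3, 2153 and 13 with limma-voom and 4, 1629 and 11 with a term for the library set. With a mean of at least 1 CPM 2 members and 1168 genes were called, with upper-quartile factors 476 genes, without robust estimation 4 other listed genes, and with the newer form 2 members. Leaving out each library in turn gave 0 to 2 members, 1 to 1372 genes and 0 to 12 other listed genes; without any library other than control 4 there were at most 7 genes in all (3544 to 6454 over all 8 fits at an unadjusted p under 0.05). Over all genes the median (log2) was -0.34 under total counts, -0.20 under upper-quartile scaling, -0.14 under RLE and -0.09 under TMM. The members' median, 0.39, was 0.11 with total counts. The cause of these changes was not tested. With a replicate block 0 members, 0 genes and 0 other listed genes were called by edgeR (6, 5144 and 22 at an unadjusted p under 0.05; Mdh2 adjusted p = 0.0690). Deviations of same-numbered libraries correlated at 0.20, 0.21, -0.26 and 0.39, and number 3 did not correlate best with its own number, so the numbers were not read as pairs. Signs changed for Idh3a, Ogdh and Cs: Idh3a was -0.0133 with upper-quartile factors, -0.19 with total counts, -0.0047 with a mean of at least 1 CPM and -0.0238 among receptor-rich libraries; Ogdh was -0.0299 with total counts and -0.11 in those libraries; Cs was 0.0329 with limma-voom, 0.0517 in those libraries, 0.0376 with the Xist term, 0.0721 in the 6 libraries with low Xist and -0.0961 to 0.0509 without single libraries. Among receptor-rich libraries the log2 ratio of Idh3b to Idh3g differed by 0.0375, that of Ogdh to Dlst by -0.23, that of Idh2 to Idh1 by -0.58 and that of Mdh2 to Mdh1 by 0.51; among receptor-poor ones these were -0.24, 1.38, 0.33 and -0.22. Every member had 2800 counts or more in each library. How many RNA molecules these counts stand for was not tested.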
